A study of Homo sapiens with 12 samples.

Results

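Ribosomal DNA sites were taken as every poly(A) site cluster on GL000220, an unplaced human contig of hg19 that carries a ribosomal DNA copy. The rule used the contig name and required a read in any library, with no other measured value. It found 319 of 640413 sites in the pull-down and input table (258 on the plus strand, 61 on the minus strand) and 96 of 189010 sites in the fraction table (81 plus, 15 minus). Both strands and windows of 10 kb were kept apart.

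Ribosomal DNA is transcribed by RNA polymerase I into one long precursor, which is cut into the small- and large-subunit rRNAs, and the spacer pieces are degraded. Mature rRNA has no long poly(A) tail, unlike most mRNA. Short oligo(A) tails are added to rRNA precursors and to pieces on their way to decay by the nuclear exosome, and A-rich stretches inside an RNA can also be captured on oligo(dT). A count at a contig site is therefore a count of captured 3′ ends and not a level of rRNA.

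All 12 libraries came from HEK293T, a human embryonic kidney cell line. For the pull-downs, cells of 1 STAU1-KO clone made by Cas9 double nicking transiently expressed STAU1-FLAG or FLAG-GFP, the latter as the control bait. RNA was sequenced from the anti-FLAG pull-down (IP) and from total lysate (input), with 2 replicates in each of 4 groups and all of them on the knockout background. STAU1 is a protein that binds double-stranded RNA and associates with ribosomes. For the fractions, cytoplasmic and polysomal poly(A)+ RNA of STAU1-KO cells and of wild-type cells was sequenced, with 1 library each and no transfection listed; the labels name 1 knockout clone and 1 isogenic control. Nothing in the labels says whether replicates came from separate cultures, so p-values measure the spread between these libraries, which may be technical.

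The pull-down table held 5567893 to 9655646 reads per library in the inputs, 6212606 and 5727812 in the STAU1 pull-downs, and 1291888 and 1245270 in the GFP pull-downs. The fraction libraries held 2799226 to 3483937 reads. One library stood apart on the contig: replicate 1 of the STAU1 input had reads at 43 contig sites, 21.9 reads per site, whereas replicate 2 had reads at 137 sites, 9.61 reads per site. The other 6 pull-down and input libraries had reads at 77 to 160 contig sites. Values without it are given for the shares, strand sums, called windows and site 118416. Because the tables name no gene, STAU1 itself was not checked here.

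The contig reads lay in a narrow stretch. The 319 sites held 8837 reads in the 8 pull-down and input libraries, with a median of 8 reads per site, 56 sites with a single read and 45 sites with 50 or more. On the plus strand, 236 sites between positions 117881 and 145338 held 7972 reads, 90.2% of the contig's reads. No plus-strand site with 10 or more reads lay in the 106881 nt between positions 11000 and 117881. On the minus strand no such site lay between positions 6190 and 119336. The profile by distance shows this as a flat line of more than 100 kb followed by several peaks. Where the rRNA genes lie on these hg19 coordinates was not determined here, so no site was assigned to a mature rRNA or a spacer.

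**Figure D1:**
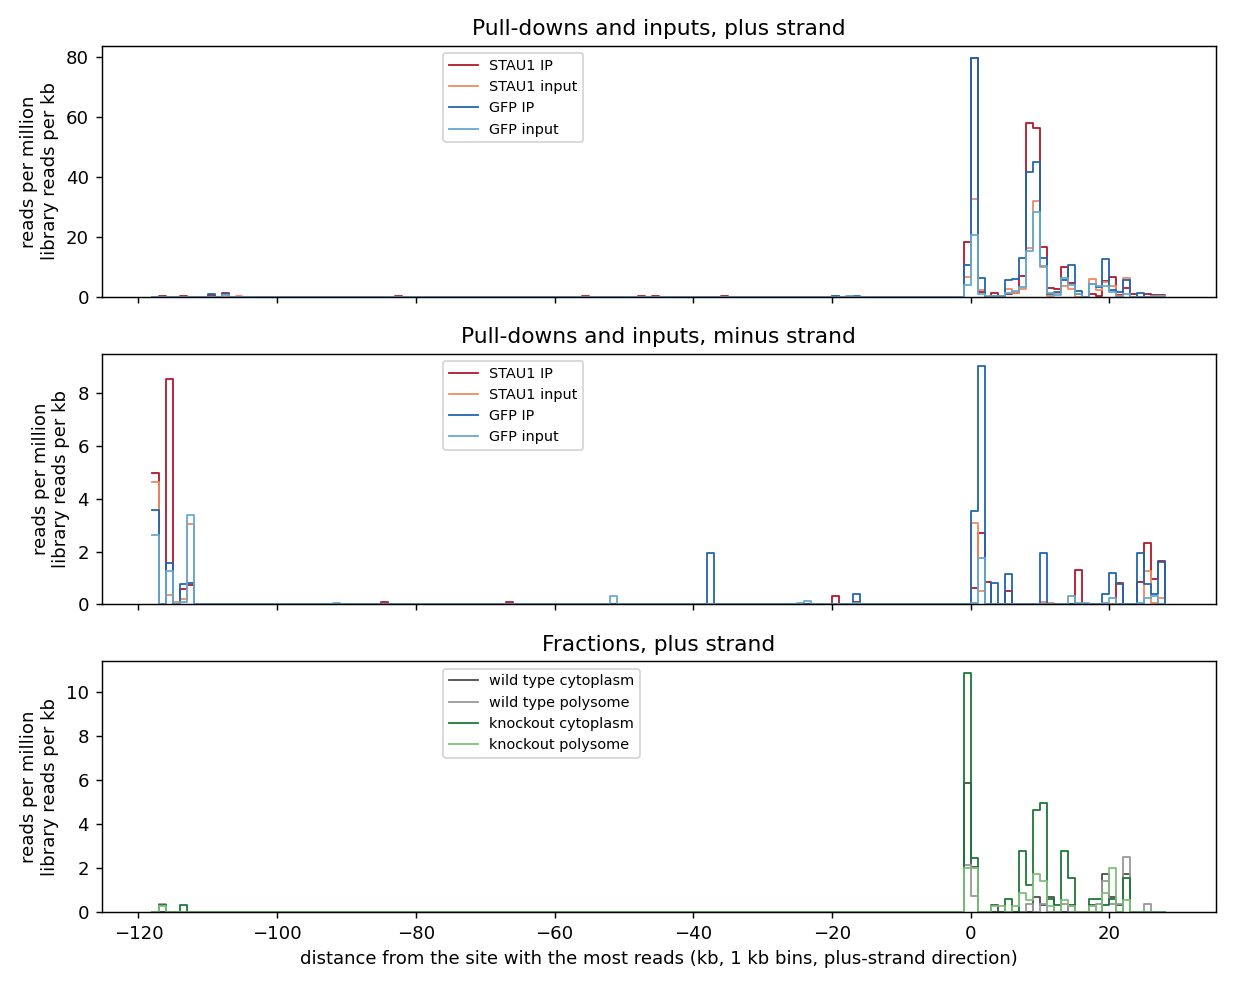
RPM in 1 kb bins along GL000220, by distance from the plus-strand site with the most reads (kb, plus-strand direction): mean of 2 libraries per group on the plus strand (top) and minus strand (middle), and single fraction libraries on the plus strand (bottom). The y axes differ between panels. Plus-strand reads sat at the site with the most reads and 8 to 10 kb beyond it, and minus-strand reads at both ends of the covered positions.

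Sites were packed more densely there than anywhere else outside the mitochondrial genome. The plus-strand window 120001-130000 held 108 sites and 4035 reads, which ranked it 1 by number of sites among 312240 strand-specific windows outside the mitochondrion and 5 among all 312244. Neighbouring sites in it were 39 nt apart at the median, and the smallest spacing was 25 nt. The next window, 130001-140000, held 81 sites and ranked 3, and the window 110001-120000 held 34 sites and ranked 19. By number of reads the same windows ranked lower, at 1731, 4309 and 2629 of 312244. In the fraction table, window 120001-130000 held 38 sites and ranked 6 of 73986 windows outside the mitochondrion. Many sites with few reads each is a description of these windows, and the labels do not state the rule by which the authors clustered reads into sites.

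One site and one cluster carried much of the signal. Site 118416 on the plus strand held 1614 reads, 18.3% of the contig's reads, and was the site with the most contig reads in each of the 8 pull-down and input libraries. The 10 sites with the most reads together held 35.2%. A stretch of low signal separated it from a second cluster. The 2 kb from 126416 to 128415 held 22 sites with 1292 reads in the first kilobase and 27 sites with 1695 reads in the second. Within that cluster lay 127050 (223 reads), 127110 (126), 127177 (209), 127544 (179), 127701 (133) and 127777 (142). Farther on the plus strand, the sites with the most reads were 138157 (169 reads) and 141296 (142 reads). On the minus strand they were 734 (176 reads), 2844 (80) and 6190 (73).

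The contig's share of all reads was higher in the pull-downs of both baits than in the inputs. It was 281 and 344 reads per 1000000 library reads (RPM) in the STAU1 pull-downs and 327 and 288 in the GFP pull-downs. In the inputs it was 169 and 136 RPM for STAU1 and 145 and 109 for GFP. All 4 pull-downs lay above all 4 inputs, and the baits overlapped. The pull-down mean was 310.1 ± 30.3 RPM and the input mean 139.8 ± 25.0 (SD, n = 4 each), a ratio of 2.22 (exact permutation test, two-sided p = 0.0286, the smallest p that 4 against 4 allows).

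Both strands shared this pattern. The plus-strand share was 279.7 ± 30.3 RPM in pull-downs and 127.3 ± 20.3 in inputs, a ratio of 2.20, and the minus-strand share was 30.4 ± 4.22 and 12.5 ± 5.38, a ratio of 2.42 (SD, n = 4 each; exact permutation test, two-sided p = 0.0286 for each, adjusted p = 0.0286 over the 3 share comparisons). Without STAU1 input replicate 1 the mean differences were 180.1 RPM for both strands, 160.02 for plus and 20.1 for minus (exact permutation test, p = 0.0571 for each, the smallest p that 4 against 3 allows). With only sites of 10 or more reads, the minus-strand p was 0.0571 (exact permutation test). The minus strand gave 6.07% to 11.4% of a library's contig reads, and pull-downs and inputs overlapped.

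Mitochondrial plus-strand shares were lower in the pull-downs of both baits. Shares of other unplaced or unlocalised contigs were higher with STAU1, as on GL000220, but not with GFP. Mitochondrial plus-strand sites took 62207 ± 5213 RPM in the STAU1 inputs and 24675 ± 27.9 in the STAU1 pull-downs, and 60571 ± 2442 and 25813 ± 1483 with GFP (SD, n = 2 each; these shares were not tested). The other unplaced or unlocalised contigs stood at 133.5 ± 6.29 RPM in the STAU1 inputs and 216.9 ± 22.8 in the STAU1 pull-downs, but at 151.0 ± 2.61 and 150.1 ± 8.92 with GFP. Whether GL000220 differed from those contigs was not tested. Taken as a share of reads outside the mitochondrion, the contig was 2.10 times higher in the pull-downs.

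**Figure D2:**
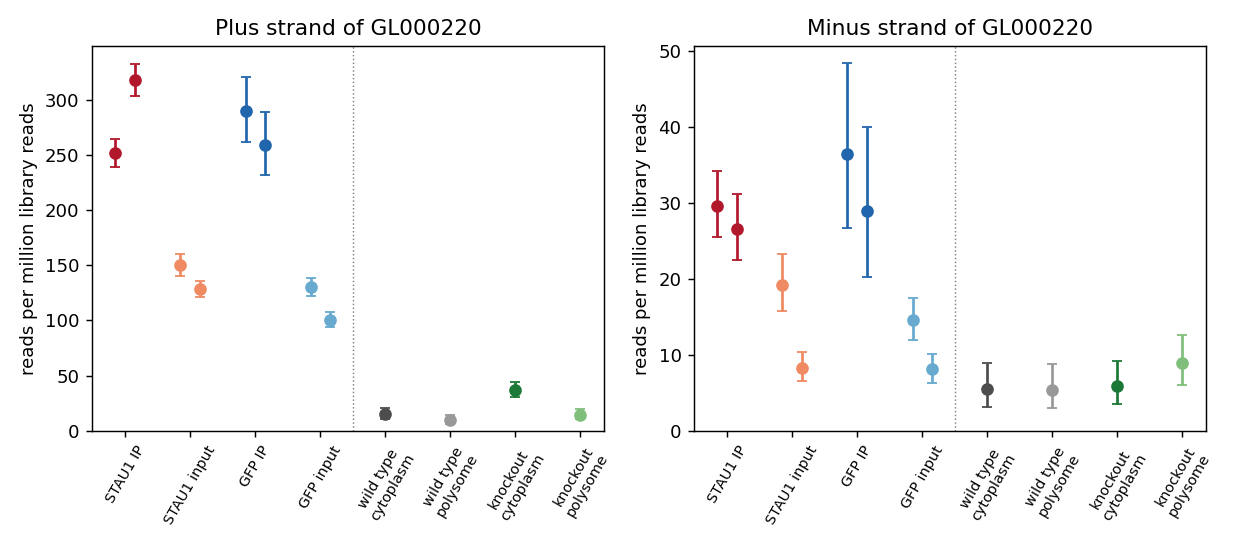
Share of library reads on the plus strand (left) and minus strand (right) of GL000220, in RPM, one point per library with its exact 95% binomial interval, which covers counting error only. The 4 pull-downs lie above the 4 inputs on both strands, and the fraction libraries right of the dotted line come from a separate table.

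Summed over the plus strand, the contig rose with each bait and the baits did not differ beyond their error. In edgeR's quasi-likelihood test, with Benjamini-Hochberg adjustment over 23618 tested windows, the plus-strand sum rose by 0.90 ± 0.19 (log2, SE) in STAU1 IP over STAU1 input (adjusted p = 0.00509), a fold of 1.86 with a 95% interval of 1.41 to 2.47. In GFP IP over GFP input it rose by 0.95 ± 0.20 (adjusted p = 0.00369), a fold of 1.93 (1.45 to 2.56). The double ratio, which is the STAU1 pull-down over its input divided by the GFP pull-down over its input, was -0.05 ± 0.27 with an interval of -0.62 to 0.53 (edgeR adjusted p = 0.977). As a fold this interval runs from 0.650 to 1.44. The median double ratio over all tested windows was 0.31 (log2). The 2 inputs differed by 0.18 ± 0.19.

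Filtering with its scaling, and single libraries, decided these calls. With every site and window kept, the scaling factors were re-estimated on all sites. The plus-strand change was then 0.69 with STAU1 (edgeR adjusted p = 0.201) and 0.51 with GFP (edgeR adjusted p = 1). Filter and scaling were not separated. Without STAU1 IP replicate 2 the plus-strand STAU1 change was 0.68 (edgeR adjusted p = 0.164). The GFP change was 0.77, 0.81 and 0.84 without GFP input replicate 2, GFP IP replicate 1 and GFP IP replicate 2 (edgeR adjusted p = 0.0566, 0.118 and 0.107). Leaving out the sparse library, STAU1 input replicate 1, gave 0.86 for STAU1 (edgeR adjusted p = 0.0350).

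The minus-strand sum did not pass the test with either bait. It was 0.93 ± 0.41 with STAU1 (edgeR adjusted p = 0.172, interval 0.08 to 1.78) and 1.23 ± 0.43 with GFP (edgeR adjusted p = 0.0889, interval 0.34 to 2.13). Without STAU1 input replicate 1 the STAU1 value was 1.46 (edgeR adjusted p = 0.0519). The double ratio was -0.30 ± 0.58, with an interval of -1.52 to 0.92. Scaling mattered for the GFP value: with library totals in place of TMM factors it was 1.53 (edgeR adjusted p = 0.0338). The same change of scaling moved the median of all tested sites from 0.12 to 0.26 in the STAU1 comparison, from -0.16 to 0.13 in the GFP comparison and from 0.30 to 0.14 in the double ratio.

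Of the 24 strand-specific windows of the contig, 9 had enough reads to test, and 2 were higher in each pull-down and none lower. Over all tested windows, 5.11% were called higher with STAU1 and 3.2% with GFP, and 3.61% and 5.21% lower. These 2 windows were neighbours on the plus strand, 110001-120000 and 120001-130000. No contig window was called in the double ratio, where 1.16% of all windows were higher and 0.373% lower, or between the inputs, where 0.00847% were higher. At an unadjusted p under 0.05 the contig counts in those comparisons were 0 and 2 of 9. Both were plus-strand windows higher in the STAU1 inputs than in the GFP inputs. They were 110001-120000 (0.65 ± 0.30, log2, SE) and 140001-150000 (2.15 ± 0.82). Over all tested windows, 9.33% were higher and 4.06% lower at that p in the double ratio, and 2.37% and 2.85% between the inputs.

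Window 110001-120000, which contains site 118416, held 81.0 and 118.5 RPM in the STAU1 pull-downs and 40.2 and 43.6 in the STAU1 inputs. With GFP it held 121.5 and 69.9 in the pull-downs and 33.1 and 17.7 in the inputs. Every pull-down was above every input. The change was 1.10 ± 0.30 (log2, SE) with STAU1 (edgeR adjusted p = 0.0249) and 1.62 ± 0.32 with GFP (edgeR adjusted p = 0.00222). The STAU1 value was 0.90 without STAU1 input replicate 1 (edgeR adjusted p = 0.106) and 0.76 without STAU1 IP replicate 2 (edgeR adjusted p = 0.251). The GFP value was 1.11 without GFP IP replicate 1 (edgeR adjusted p = 0.0723).

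Window 120001-130000, the densest in sites, held 134.6 and 153.8 RPM in the STAU1 pull-downs against 72.7 and 58.3 in the STAU1 inputs. With GFP it held 120.8 and 131.7 against 69.7 and 55.8. Again no input reached a pull-down. The change was 1.01 ± 0.21 with STAU1 (edgeR adjusted p = 0.00408) and 0.70 ± 0.22 with GFP (edgeR adjusted p = 0.0498). The GFP call was lost with any 1 of the 8 libraries left out, at 0.45 to 0.71. The STAU1 change was 0.87 without STAU1 IP replicate 2 (edgeR adjusted p = 0.0882) and 1.01 without STAU1 input replicate 1 (edgeR adjusted p = 0.0267).

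Window 130001-140000 was next in line and was not called. It held 29.5 and 34.0 RPM in the STAU1 pull-downs, 28.9 and 19.8 in the STAU1 inputs, 34.1 and 53.0 in the GFP pull-downs and 25.8 and 24.2 in the GFP inputs. In RPM the lowest pull-down was just above the highest input. In TMM-scaled values they overlapped, with STAU1 IP replicate 1 at 28.3 and STAU1 input replicate 1 at 28.9. Its changes were 0.26 ± 0.31 with STAU1 (interval -0.39 to 0.91) and 0.49 ± 0.33 with GFP (interval -0.19 to 1.18). The share of plus-strand reads in this window was 13.6% ± 4.55 in pull-downs and 19.6% ± 3.51 in inputs (SD, n = 4 each), and in window 110001-120000 it was 34.6% ± 6.45 and 26.0% ± 6.75. Neither difference passed (exact permutation test, two-sided p = 0.114 and 0.143, adjusted p = 0.286 for both over 4 comparisons chosen after the values were seen), so an uneven change along the strand was not shown.

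**Figure D3:**
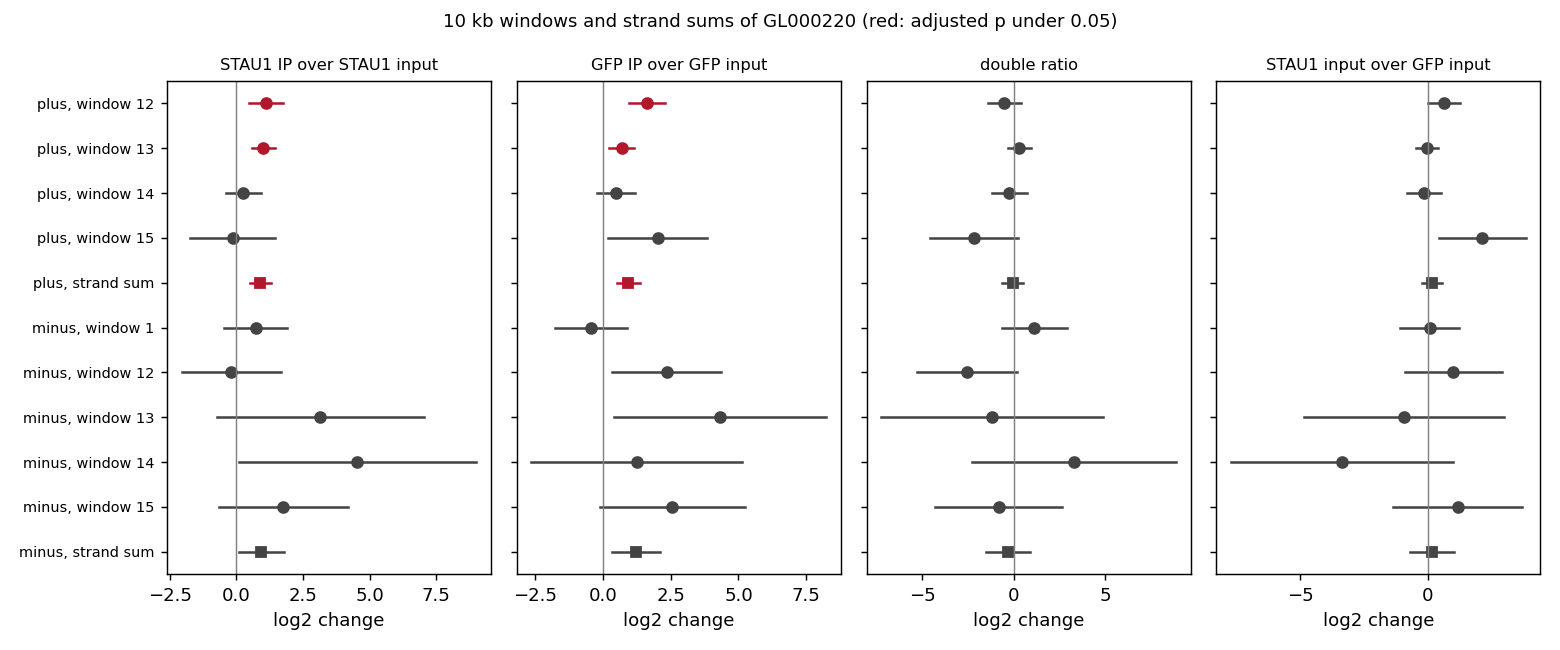
Log2 changes with 95% intervals from edgeR for the tested 10 kb windows (circles, numbered from the contig start) and strand sums (squares) of GL000220 in 4 comparisons; red marks an adjusted p under 0.05. Windows 12 and 13 are 110001-120000 and 120001-130000. Both and the plus-strand sum are red in each pull-down over its input, and nothing is red in the double ratio or between the inputs.

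Minus-strand windows had wide intervals. The window at the start of the contig, 1-10000, held 13.7 and 16.1 RPM in the STAU1 pull-downs, 10.96 and 5.80 in the STAU1 inputs, 4.64 and 8.83 in the GFP pull-downs and 10.2 and 4.59 in the GFP inputs. The STAU1 pull-downs were above the other 6 libraries, and the GFP pull-downs overlapped their inputs. Its change was 0.72 ± 0.56 with STAU1 and -0.43 ± 0.63 with GFP, and the double ratio was 1.14 ± 0.84 (interval -0.62 to 2.91, edgeR adjusted p = 0.617). Opposite the plus-strand peak, minus-strand window 110001-120000 stood at 10.1 and 10.4 RPM in the GFP pull-downs and 0.917 and 2.24 in the GFP inputs, and at 3.86 and 2.79 against 6.11 and 1.14 with STAU1. The GFP libraries did not overlap, yet the change of 2.35 ± 0.96 did not pass (edgeR adjusted p = 0.161).

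Single sites gave few calls. Of 319 sites, 62 passed the filter on low counts (56 plus, 6 minus), and these held 72.9% of the contig's reads. In STAU1 IP over STAU1 input none was called at an adjusted p under 0.05 in edgeR, where 3.06% of all tested sites were higher and 2.99% lower. At an unadjusted p under 0.05, 14 were higher and 5 lower, against 10.4% and 8.72% of all tested sites. DESeq2 called 3 higher and 1 lower, and 8.21% of all tested sites in either direction. In GFP IP over GFP input 2 were higher and none lower, against 2.11% and 3.99% of all tested sites. Unadjusted edgeR p-values under 0.05 gave 5 higher and none lower with GFP, against 6.34% and 10.3% of all tested sites. There DESeq2 called 3 higher and none lower, and 7.59% of all tested sites in either direction.

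The median site change was 1.44 with STAU1 and 1.32 with GFP among the 62, and 0.12 and -0.16 among all 33744 tested sites. A site could pass the filter through reads in 1 group alone, so these medians describe the passing sites and support no direction for the 319. In the double ratio no contig site was called by edgeR or DESeq2, where 0.53% of all tested sites were higher and 0.157% lower. At an unadjusted p under 0.05, 4 contig sites were higher and 3 lower, against 7.50% and 3.63% of all tested sites. The median was -0.25 on the contig and 0.30 over all tested sites. Between the inputs edgeR and DESeq2 called no contig site, against 0.00889% of all sites higher, with 1 higher and 3 lower at an unadjusted p under 0.05, where 1.89% and 2.12% of all tested sites lay. In TMM-scaled values, 4 of the 62 sites had every pull-down above every input and 2 every pull-down below, against 6.48% and 8.58% of all tested sites.

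Site 118416, the site with the most reads, had 57.8 and 74.4 RPM in the STAU1 pull-downs and 32.9 and 25.9 in the STAU1 inputs. It had 59.6 and 41.0 in the GFP pull-downs and 23.6 and 9.85 in the GFP inputs. All pull-downs exceeded all inputs, and GFP input replicate 2 was the lowest. The change was 1.04 ± 0.35 with STAU1 (edgeR adjusted p = 0.0897; 1.06 and 0.171 without STAU1 input replicate 1) and 1.30 ± 0.37 with GFP (edgeR adjusted p = 0.0413). The GFP value was 0.78 without GFP input replicate 2 (edgeR adjusted p = 0.550), 0.96 without GFP IP replicate 1 (edgeR adjusted p = 0.461) and 1.37 without GFP IP replicate 2 (edgeR adjusted p = 0.0516). The double ratio was -0.26 ± 0.50, with an interval of -1.31 to 0.79. Without this site the contig's share was 2.16 times higher in pull-downs than in inputs, close to the 2.22 with it.

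Site 118796, 380 nt beyond it, was the other site called with GFP. It had 19 and 12 reads in the GFP pull-downs, 0 and 3 in the GFP inputs, 17 and 38 in the STAU1 pull-downs and 0 and 9 in the STAU1 inputs. Replicate 1 of each input had no read there, and every pull-down was above every input RPM. With 31 reads over the GFP pull-downs and 3 over the GFP inputs, the ratio of pooled shares was 67.5. Its 95% counting interval, 21.1 to 345, leaves out the spread between libraries. The fitted log2 change was 5.64 ± 1.44 (SE, interval 2.62 to 8.65, edgeR adjusted p = 0.0220). Leaving out GFP input replicate 1 or GFP IP replicate 1 ended the call, with a fitted log2 change of 4.60 and 5.24 against 5.64 with all libraries (edgeR adjusted p = 0.116 and 0.0757). So did keeping every site (edgeR adjusted p = 0.0901), and without GFP input replicate 2 the fitted change was 8.80. The STAU1 comparison was not called (edgeR adjusted p = 0.196).

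The sites of the second cluster differed among themselves and between libraries. Site 127050 had 7.73 and 10.5 RPM in the STAU1 pull-downs, 3.59 and 2.69 in the STAU1 inputs, 9.29 and 0.803 in the GFP pull-downs and 5.50 and 1.57 in the GFP inputs. The STAU1 libraries separated, while the GFP pull-downs spanned their inputs. Site 127544 had 5.15 and 12.6 in the STAU1 pull-downs and 0 and 3.11 in the STAU1 inputs, but 0.774 and 2.41 in the GFP pull-downs and 3.93 and 1.23 in the GFP inputs. None of these differences passed the test, with edgeR adjusted p of 0.418 and 0.327 for STAU1 at the 2 sites.

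Site 127777 showed how sparse the counts were. It had 32 and 43 reads in the STAU1 pull-downs, 0 and 37 in the STAU1 inputs, 0 and 0 in the GFP pull-downs and 15 and 15 in the GFP inputs. A count of 0 allows up to 3 reads in each GFP pull-down, 2.32 and 2.41 RPM, and the GFP inputs stood at 1.96 and 1.68 RPM, so a difference was not detectable library by library at this depth. Site 127177 had 4.99 and 8.03 RPM in the STAU1 pull-downs, 7.72 and 3.42 in the STAU1 inputs, 6.97 and 8.03 in the GFP pull-downs and 0.524 and 3.69 in the GFP inputs. Only the GFP libraries separated there, and the change of 1.47 ± 0.92 was not called (edgeR adjusted p = 0.461).

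Farther along the plus strand lay sites 138157 and 141296, both outside the called windows. Site 138157 had 3.70 and 2.10 RPM in the STAU1 pull-downs, 6.65 and 2.17 in the STAU1 inputs, 3.87 and 15.3 in the GFP pull-downs and 2.23 and 3.92 in the GFP inputs. Site 141296 had 1.61 and 3.67 in the STAU1 pull-downs, 7.90 and 3.94 in the STAU1 inputs, 7.74 and 2.41 in the GFP pull-downs and 0.524 and 1.34 in the GFP inputs. At 141296 the STAU1 pull-downs lay below their inputs and the GFP pull-downs above theirs. Neither site was called with GFP (edgeR adjusted p = 0.519 and 0.367), and no difference from the peak was tested. The double ratio of 141296 was -3.36 ± 1.48 and did not pass (edgeR adjusted p = 0.402).

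The minus-strand sites likewise held few reads. Site 734 had 50 and 11 reads in the STAU1 pull-downs, 35 and 29 in the STAU1 inputs, 2 and 7 in the GFP pull-downs and 31 and 11 in the GFP inputs. Its changes were 0.00 ± 0.96 with STAU1 and 0.15 ± 1.08 with GFP, with groups that overlapped. Site 2899 had 13 and 31 reads in the STAU1 pull-downs and 0 and 0 in the STAU1 inputs, and 0, 1, 3 and 3 in the 4 GFP libraries. It was not called (edgeR adjusted p = 0.102). Site 6190, chosen after its values were seen, went the other way, with 0 and 0 reads in the STAU1 pull-downs and 26 and 13 in the STAU1 inputs, and 0 and 1 in the GFP pull-downs and 25 and 8 in the GFP inputs. Every pull-down lay below every input in RPM, and the site was not called (edgeR adjusted p = 0.0845 with STAU1 and 0.571 with GFP). The other sites the naming rule gave, 117966, 118087, 126256, 127110 and 127701 on the plus strand and 2844, 119501 and 146109 on the minus strand, held 29 to 133 reads each, and none was called in any comparison.

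Sparse counts were common at such depth. Among contig sites with 20 to 100 reads in all, 61.5% of 78 had no read in 3 or more of the 8 libraries, and 37.2% drew over 50% of their reads from 1 library. The same shares were 54.5% and 32.4% of 30954 sites on chromosomes 1 to 22 and X.

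**Figure D4:**
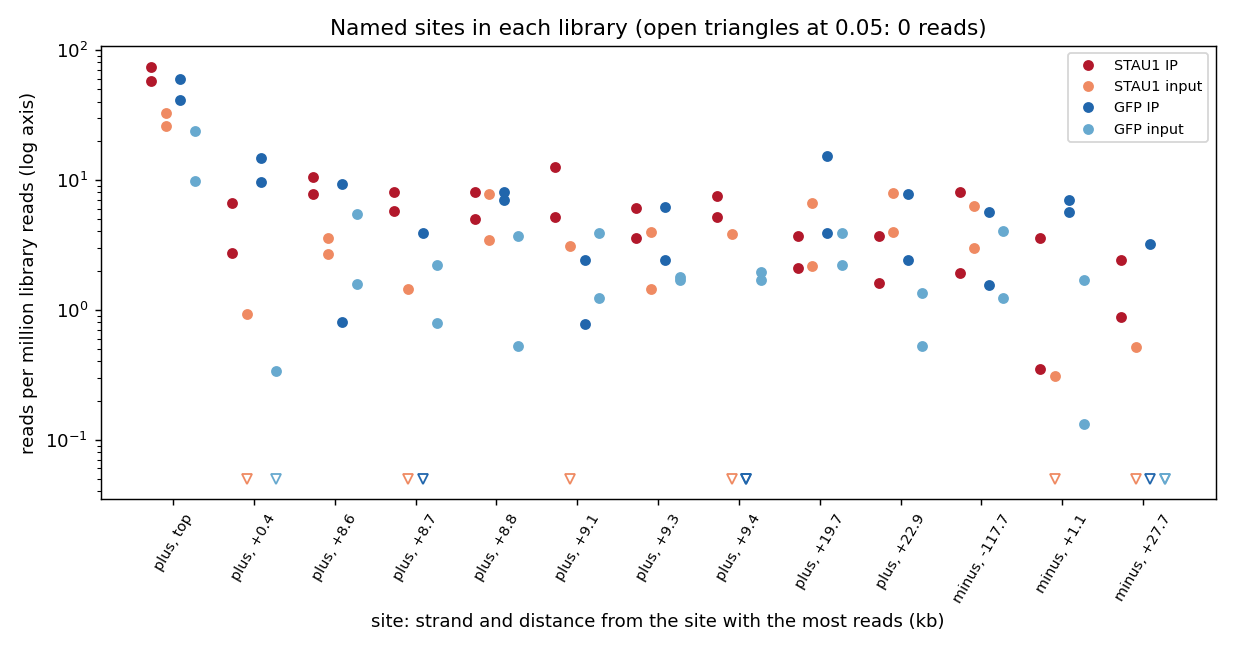
RPM (log axis) at the named plus- and minus-strand sites of the pull-down table, one point per library; open triangles at the bottom mark 0 reads and have no value. At the site with the most reads all pull-downs lie above all inputs, while at most other sites the groups overlap.

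The fraction table was made separately, so its levels are not set against those of the pull-downs. Its 96 contig sites held 323 reads, and 49 sites had a single read. Of these sites, 58 lay at the same position as a site of the pull-down table and held 71.8% of the reads, and 81 lay within 24 nt of one. The plus-strand stretch from 117881 to 145338 held 78 sites and 73.7% of the reads. The leading site was 734 on the minus strand with 38 reads, followed by 118416 with 21 and 141296 with 19. Site 734 had 9 reads in STAU1-KO cytoplasm, 17 in STAU1-KO polysomes, 7 in wild-type cytoplasm and 5 in wild-type polysomes. Site 118026, with 17 reads, had 6 and 11 in the STAU1-KO and wild-type cytoplasm and none in polysomes.

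Over both strands, contig reads made up a smaller share of the polysomal than of the cytoplasmic library's reads in the STAU1-KO pair. The share was 43.0 RPM in STAU1-KO cytoplasm (139 reads) and 23.5 in STAU1-KO polysomes (82 reads), and 20.7 in wild-type cytoplasm (60 reads) and 15.0 in wild-type polysomes (42 reads). With 1 library per condition there is no replicate check, and intervals cover counting error only. The log2 ratio of polysome over cytoplasm was -0.87 in the STAU1-KO (95% interval -1.28 to -0.47) and -0.46 in wild type (-1.07 to 0.13). The scale moved these intervals. Of reads outside the mitochondrion the wild-type value was -0.68 (-1.28 to -0.08), and with TMM-scaled library sizes it was -0.72 (-1.33 to -0.13). With only sites of 10 or more reads the STAU1-KO value was -0.62 (-1.31 to 0.05).

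By strand, the STAU1-KO ratio of polysome over cytoplasm was 0.394 on the plus strand (51 against 120 reads, interval 0.278 to 0.552) and 1.51 on the minus strand (31 against 19 reads, interval 0.83 to 2.84). In wild type it was 0.637 on the plus strand (27 against 44 reads, interval 0.379 to 1.05) and 0.973 on the minus strand (15 against 16 reads). The median over all windows with 20 or more reads was 1.16 in the STAU1-KO and 1.22 in wild type. The minus strand gave 13.7% of contig reads in STAU1-KO cytoplasm and 37.8% in STAU1-KO polysomes, and 26.7% and 35.7% in wild type.

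Of 5 contig windows with 20 or more reads, 3 plus-strand windows were past 2-fold lower in STAU1-KO polysomes and 2 in wild-type polysomes. None was past 2-fold higher. Over all 15141 such windows, 5.84% and 5.96% were past 2-fold lower and 10.4% and 16.3% higher. Window 110001-120000 was lower in both, at 0.302 in the STAU1-KO (14 against 43 reads, interval 0.153 to 0.563) and 0.361 in wild type (8 against 23 reads, interval 0.140 to 0.836). Window 120001-130000 stood at 0.375 in the STAU1-KO (19 against 47 reads) and at 2 against 6 reads in wild type. Minus-strand window 1-10000 was at 1.55 in the STAU1-KO (30 against 18 reads, interval 0.834 to 2.95) and 1.20 in wild type.

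Between the clones, the STAU1-KO cytoplasm held more plus-strand contig reads than wild-type cytoplasm. The counts were 120 and 44 reads, 37.1 and 15.1 RPM, a ratio of 2.45 (95% counting interval 1.72 to 3.55), while the minus strand stood at 19 and 16 reads, a ratio of 1.07 (0.520 to 2.22). Window 120001-130000 held 47 and 6 reads, a ratio of 7.04 (3.00 to 20.1), and in polysomes 19 and 2 reads, a ratio of 7.63 (1.84 to 67.6). Past 2-fold higher were 2 of the 5 contig windows in cytoplasm and 1 of 5 in polysomes, against 13.7% and 9.09% of all such windows. Past 2-fold lower were 0 and 1, against 5.53% and 5.03%. The median ratio over those windows was 1.12 in cytoplasm and 1.07 in polysomes. The labels name 1 clone per genotype and each condition is 1 library, so genotype, clone and library cannot be told apart.

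**Figure D5:**
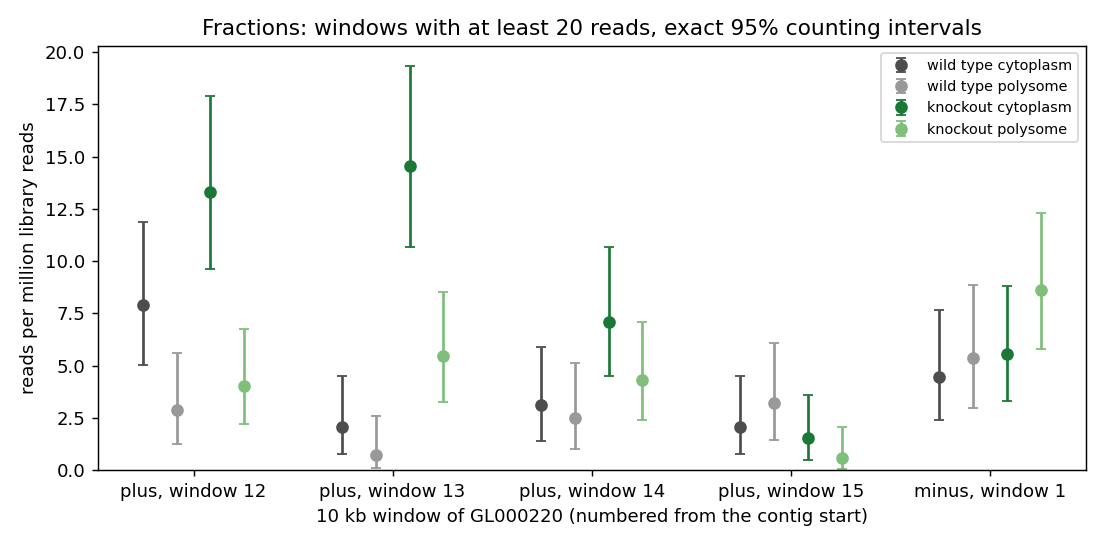
RPM in the fraction libraries for the contig windows with at least 20 reads, with exact 95% counting intervals, 1 library per condition. In windows 12 and 13 of the plus strand the STAU1-KO cytoplasm is highest, and in window 1 of the minus strand all 4 intervals overlap.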

How the data were processed

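The authors deposited 2 tables of whole-number counts, one row for each poly(A) site cluster: pull-downs with inputs, and fractions. Reads came from 3′READS+ libraries, in which poly(A)+ RNA is caught on oligo(dT) and the tail digested by RNase H, per the labels' protocols. STAR and hg19 are named in the submitters' processing notes. How reads aligned to several ribosomal DNA copies were placed, and whether PCR duplicates were collapsed, the labels do not say.

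Shares are contig reads per 1000000 library reads (RPM). Sites (33744 tested) and 10 kb strand windows (23618 tested, with both strand sums added) were fitted with edgeR 4.0.16 (R 4.3.3): filterByExpr by group, TMM scaling, quasi-likelihood test on 4 groups without a block, 4 residual degrees of freedom, Benjamini-Hochberg adjustment over all features tested. The procedure was tested on simulated data with changes placed only at sites with many reads, so the test does not cover sparse contig sites. Shares were compared by exact permutation (scipy 1.17.1), and fractions by exact Clopper-Pearson or conditional 95% intervals. PCR reads are not independent molecules, so intervals cover counting error only. DESeq2 1.42.0, other scalings, filters, window sizes, a replicate block and leaving out each library were tried as alternatives. Named sites were the 10 with the most reads in each table, those called, and the leading site of each window with 50 or more reads; others named were chosen after their values were seen. Members and lists were chosen with earlier results of these data known. No sequence of the sites is printed, since no hg19 genome was used here.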

Additional observations from a re-analysis of the deposited data

How the results depend on the processing

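Counts of called contig sites and windows were small, and several depended on 1 setting. Calls over all 33744 tested sites moved too. In the STAU1 comparison they numbered 2040 in the main fit, 2216 under RLE scaling and 2251 when no scaling factor was applied. DESeq2 called 2769. Under the remaining settings, the contig counts below were not set against the share of all sites or windows called. Whether they exceeded that share was not examined, so nothing about the contig is read from them. For STAU1 IP over input, 0 sites were called, against 1 with RLE factors, 1 with library totals, 4 with DESeq2, 2 with a replicate block and 0 to 10 with 1 library left out. For GFP, 2 sites were called, against 0 with every site kept and 0 to 4 with 1 library left out. In the double ratio 0 to 2 were called with 1 library left out. Of 2 windows called with STAU1, 0 were called with every window kept, 1 without the site with the most reads and 0 to 2 with 1 library left out. Of 2 with GFP, 1 was called with every window kept, with 5 kb windows, with 20 kb windows, and, chosen after seeing the data, with sites read in at least 4 libraries, and 0 to 2 with 1 library left out.

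The plus-strand sum (log2) with every window kept was 0.69 for STAU1 (edgeR adjusted p = 0.201) and 0.51 for GFP (edgeR adjusted p = 1), and with 1 library left out 0.68 to 1.03 and 0.77 to 0.95. For the minus strand with GFP it was 1.53 with library totals and 0.86 to 1.52 with 1 library left out. The double ratio turned sign: on the plus strand 0.18 with every window kept and -0.16 to 0.14 with 1 library left out, and on the minus strand 0.56 with sites read in at least 4 libraries and -0.65 to 0.34 with 1 library left out. The minus-strand difference between inputs was -0.0096 with such sites and -0.41 to 0.59 with 1 library left out. At site 118416 the double ratio was -0.86 to 0.25 with 1 library left out, and turned sign at 0.05 and 0.25 on leaving out GFP IP replicate 1 or GFP input replicate 2. The causes were not tested.

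Differences in share between pull-downs and inputs were 158.9 to 180.1 RPM for both strands, 139.8 to 161.8 for plus and 15.8 to 20.1 for minus with 1 library left out, where 3 against 4 cannot go below an exact permutation p of 0.0571; with sites of 10 or more reads the minus difference was 9.23. Whether replicate numbers pair the samples was not decided. Deviations of same-numbered pull-downs and inputs correlated at -0.04 (STAU1) and 0.04 (GFP) over 6133 sites. With 2 libraries per group this cannot tell whether a pull-down and an input shared a culture. With the replicate block, the minus-strand GFP sum was 1.27 (edgeR adjusted p = 0.0463), site 118416 passed with STAU1 at 1.07 (edgeR adjusted p = 0.0314), and the share differences were 170.3, 152.5 and 17.8 RPM (exact permutation p = 0.125, the smallest that 4 sign flips give). The GFP pull-downs held the fewest reads, and each group had 2 libraries.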
